A study of Rattus norvegicus with 7 samples.

Results

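The collagen IV and laminin chains of renal basement membranes were followed through 10 genes, Col4a1 to Col4a6, Lama5, Lamb1, Lamb2 and Lamc1. They were found by gene symbol in the feature table of the nuclear RNA counts, where each symbol had 1 row, and make up 10 of its 25399 genes. Their Ensembl identifiers were ENSRNOG00000016281 for Col4a1, ENSRNOG00000023972 for Col4a2, ENSRNOG00000015365 for Col4a3, ENSRNOG00000014851 for Col4a4, ENSRNOG00000018951 for Col4a5, ENSRNOG00000056772 for Col4a6, ENSRNOG00000053691 for Lama5, ENSRNOG00000005678 for Lamb1, ENSRNOG00000047768 for Lamb2 and ENSRNOG00000002680 for Lamc1. The rule uses symbols and no measured value. The libraries came from archived kidneys of HSRA rats, a strain in which some animals are born with a single kidney. Samples were labelled 1 Kidney (3 libraries) or 2 Kidney (4 libraries), all taken at 4 weeks of age from a central piece holding cortex and medulla. The protocol calls the animals HSRA-S (3 of them) or HSRA-C (4 of them), names that match the 1-kidney and 2-kidney labels in number only. Nuclei were isolated and single-nucleus 3′ RNA libraries (10X Genomics, v3.1) were made for each sample, with no treatment recorded in either group. Each library is taken as 1 animal, and p-values measure the spread between these 7 libraries.

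Basement membranes are sheets of extracellular matrix under epithelia and around capillaries, muscle cells and nerves. Collagen IV chains wind into trimers that join into a network, and laminins, each built of an alpha, a beta and a gamma chain, polymerise into a second network at the cell surface. The chains of Col4a1 and Col4a2 form the widespread trimer, which also lies in the mesangium and in the early glomerular basement membrane. The chains of Col4a3, Col4a4 and Col4a5 form the trimer of the mature glomerular basement membrane, which podocytes secrete, and loss of any of them causes Alport syndrome in people. Col4a6 is expressed in some epithelia, where its chain pairs with that of Col4a5. Laminin of the mature glomerular basement membrane is built from the products of Lama5, Lamb2 and Lamc1, with Lamb2 taking the place of Lamb1 during development, and loss of LAMB2 causes Pierson syndrome in people.

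The collagen IV genes lie in pairs, and the start regions of the Col4a1/Col4a2 and Col4a3/Col4a4 pairs are shown because the results below turn on how closely each pair moved together across cell classes. The sequences are RefSeq windows on GRCr8, 250 bases before to 50 after each annotated start, written 5′ to 3′ on the gene's own strand. The window of Col4a1 is chr16:84885347-84885646 on the plus strand and that of Col4a2 is chr16:84885471-84885770 on the minus strand. Their starts are 77 bases apart and the windows share 176 bases. The window of Col4a3 is chr9:91323740-91324039 on the plus strand and that of Col4a4 is chr9:91323528-91323827 on the minus strand, with starts 413 bases apart and 88 shared bases. Capitals mark the letters GGGCGG, then also CCAAT and likewise TATAAA, each searched on both strands, so that a match on the opposite strand reads as CCGCCC for the first motif, ATTGG for the second and TTTATA for the third.
Col4a1: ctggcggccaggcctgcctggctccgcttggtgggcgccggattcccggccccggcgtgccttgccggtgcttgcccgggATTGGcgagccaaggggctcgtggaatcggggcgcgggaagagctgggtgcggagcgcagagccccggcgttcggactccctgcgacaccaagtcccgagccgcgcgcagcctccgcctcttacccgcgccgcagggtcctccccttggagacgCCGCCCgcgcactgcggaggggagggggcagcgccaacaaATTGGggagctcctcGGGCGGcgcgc
Col4a2: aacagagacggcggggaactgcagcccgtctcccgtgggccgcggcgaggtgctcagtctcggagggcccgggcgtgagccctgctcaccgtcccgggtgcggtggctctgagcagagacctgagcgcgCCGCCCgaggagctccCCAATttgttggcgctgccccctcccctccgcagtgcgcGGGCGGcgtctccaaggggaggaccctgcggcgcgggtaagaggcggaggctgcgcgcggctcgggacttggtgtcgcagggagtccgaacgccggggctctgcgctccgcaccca
Col4a3: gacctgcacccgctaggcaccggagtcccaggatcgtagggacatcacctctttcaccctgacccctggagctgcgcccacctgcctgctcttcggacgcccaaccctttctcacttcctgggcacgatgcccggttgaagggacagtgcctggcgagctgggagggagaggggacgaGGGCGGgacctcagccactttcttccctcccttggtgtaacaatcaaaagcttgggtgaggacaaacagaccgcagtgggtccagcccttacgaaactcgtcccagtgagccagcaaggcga
Col4a4: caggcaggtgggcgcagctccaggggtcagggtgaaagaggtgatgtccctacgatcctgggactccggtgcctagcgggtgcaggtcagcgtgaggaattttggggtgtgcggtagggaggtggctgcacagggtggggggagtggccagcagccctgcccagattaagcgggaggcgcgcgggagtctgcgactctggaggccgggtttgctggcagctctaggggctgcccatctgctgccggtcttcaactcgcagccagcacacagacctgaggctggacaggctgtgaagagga
The window of Col4a4 held none of the 3 motifs, and no match overlapped another in these 4 windows. GGGCGG was found in 8 of the 9 windows available for the 10 genes and in 33.1% of all 33469 promoter windows of the same 300-base length. CCAAT was found in the windows of Col4a1 and Col4a2 and in no other of the 9, against 37.5% of all windows. The 2 GGGCGG matches and the 1 CCAAT match of Col4a2 lie in the bases shared with Col4a1 and are the same sites in both windows, so these 2 windows are not separate counts. TATAAA was in none of the 9 and in 14.2% of all windows. The starts of Col4a5 and Col4a6, the third pair, are 1415 bases apart and their windows do not overlap. Lamb2 had no entry.

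The 7 libraries held 37048 barcodes, a mean of 5293 per library and the same mean the submitters give. Filters and doublet removal left 31228 nuclei, 2263 to 4448 per 1-kidney library and 3933 to 5952 per 2-kidney library. Retained nuclei carried 5581726 to 18121621 unique molecular identifiers (UMIs) per 1-kidney library and 14962864 to 27069633 per 2-kidney library. Any 2 libraries shared 3 to 14 cell barcodes. Clustering, run with the 10 genes left out, gave 26 clusters, of which 20 were named into 14 classes by marker genes. The 6 unnamed clusters held 6111 nuclei. Named classes include podocyte-like (1044 nuclei), endothelium-like (2675), mural-like (206), fibroblast-like (1285), proximal tubule-like (6926) and other tubule classes, called podocytes, endothelium and so on below. Podocyte nuclei carried a summed 22436 to 22931 CPM (UMI counts per 1000000 UMIs) of 8 podocyte markers in 1-kidney libraries and 22641 to 28036 CPM in 2-kidney libraries. Nuclei of RNA-rich tubules leave free RNA in such preparations, and no empty droplets were at hand to measure it. The immune class, 367 nuclei of cells that lay down no basement membrane of their own, is therefore given as the background. It is an uneven measure, since Slc34a1, a proximal tubule gene, averaged 29597 CPM in immune nuclei, 15587 in fibroblasts, 10266 in endothelium and 2669.97 in podocytes, and ratios to immune nuclei are not scaled for this. The 2-kidney replicates 3 and 4 carry another library set code than the other 5, and its meaning is not given.

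Levels by class follow in CPM, with the UMIs of a gene and of all genes summed over the nuclei of a class in a library. They are given as the mean ± SD of 7 libraries, without a test, since classes were built from the same nuclei. UMIs are not scaled to transcript length, so levels compare classes for 1 gene and not genes with each other. The SDs cover the spread between libraries, not free RNA, and neighbouring classes in an order overlapped in range unless said otherwise.

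Col4a1 and Col4a2, whose chains form the widespread collagen IV trimer, were highest in fibroblasts. Col4a1 averaged 619 ± 169 CPM in fibroblasts (SD, n = 7), 379 ± 51.8 in endothelium, 334 ± 113 in the thin limb and 249.8 ± 39.1 in mural nuclei. Its lowest class was podocytes at 27.8 ± 10.7 CPM, where 88 UMIs were counted over 7 libraries, and the ranges of podocytes (13.4 to 43.6) and the next class up, the thick ascending limb (46.7 to 84.6), did not overlap. Fibroblasts were above endothelium in 7 of 7 libraries although the ranges over libraries overlapped. Col4a2 had nearly the same order, with 170.3 ± 48.2 CPM in fibroblasts, 95.1 ± 27.3 in endothelium, 85.0 ± 38.2 in mural nuclei, 74.0 ± 22.1 in the thin limb and 7.57 ± 5.41 in podocytes. Against immune nuclei, the mean level in fibroblasts was 4.68 times as high for Col4a1 and 8.21 times as high for Col4a2. The same ratio in endothelium was 2.86 for Col4a1 and 4.59 for Col4a2, and in podocytes it was 0.21 for Col4a1.

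Endothelium held 8.28% of retained nuclei and 7.81% ± 0.903 of the Col4a1 UMIs of a library. Fibroblasts held 4.01% of nuclei and 9.09% ± 5.18 of Col4a1 UMIs, and the proximal tubule 22.0% of nuclei and 14.5% ± 4.26 of Col4a1 UMIs. The unnamed clusters held 19.7% of nuclei and 44.3% ± 5.84 of Col4a1 UMIs. The glomerular endothelial sub-cluster held 122 nuclei, as few as 8 in a library. It was chosen by Ehd3, Gata5 and Nostrin, since Sost, also listed, differed in no endothelial sub-cluster. Of the listed peritubular and vessel markers, Igfbp5 and Sox17 were 4.22 and 2.75 times the other endothelial nuclei, and Plvap and Cldn5 0.0617 and 0.231 times. The sub-cluster had 248 ± 174 CPM of Col4a1, and its range of 79.1 to 600.1 spanned that of the other endothelial nuclei (324 to 465). The 2 thin limb clusters differed in Col4a1, with 420.3 ± 105 CPM in the larger (827 nuclei) and 88.2 ± 49.4 in the smaller (489 nuclei, none of them from 1-kidney replicate 2, whose value enters as 0). The connecting tubule averaged 152 ± 31.4 CPM and principal cells 233 ± 66.1.

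Col4a3, Col4a4 and Col4a5, whose chains form the trimer of the mature glomerular basement membrane, all had their highest mean in podocytes. Col4a3 had 1960.3, 2023 and 2295 CPM in podocytes of the 1-kidney libraries, against 2038, 2987, 2261 and 2446 CPM in those of the 2-kidney libraries. Col4a4 had 1952, 1913 and 1759 CPM in 1-kidney podocytes, against 1445, 1766, 1489.8 and 1467 CPM in 2-kidney podocytes. Col4a5 had 958, 879.9 and 746 CPM in 1-kidney podocytes, against 688, 1039.6, 783 and 937 CPM in 2-kidney podocytes. For all 3 genes the podocyte values of every library lay above every endothelial value.

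The thin limb came second for all 3 genes, with 1839.6 ± 544 CPM of Col4a3, 1567 ± 514 of Col4a4 and 750.2 ± 250.2 of Col4a5, and its range over libraries overlapped that of podocytes each time. Podocytes were above the thin limb in 5 of 7 libraries for Col4a3, 3 of 7 for Col4a4 and 5 of 7 for Col4a5. The lowest means were 558 ± 219 CPM of Col4a3 in mural nuclei, 402 ± 85.1 CPM of Col4a4 in endothelium and 137 ± 27.2 CPM of Col4a5 in endothelium. The endothelial range of Col4a5, 87.7 to 162, lay wholly below that of the proximal tubule, 219.8 to 293 CPM.

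**Figure D1:**
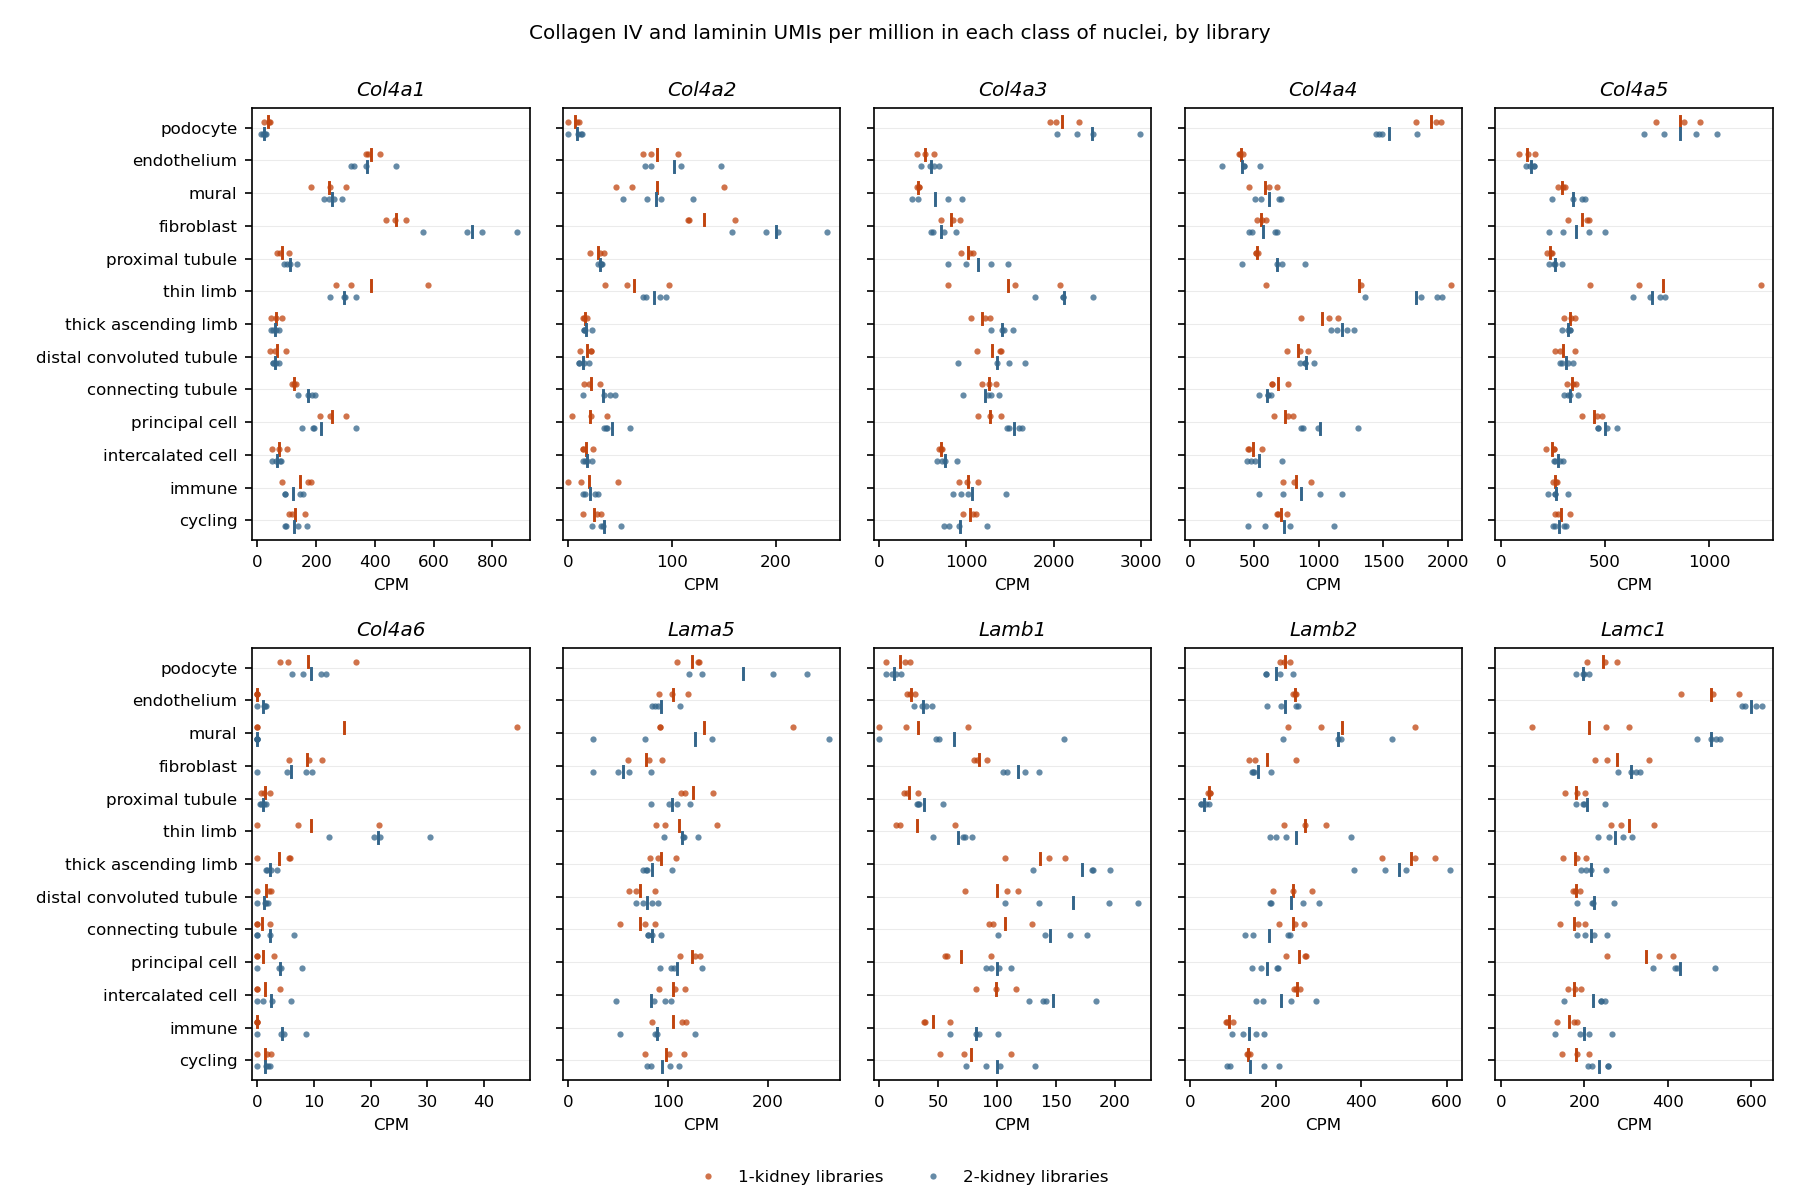
Levels of the 10 genes, 1 panel each, in 13 classes of nuclei, with CPM on a linear horizontal axis that differs between panels. Points are libraries and upright bars are group means, with 1-kidney libraries above 2-kidney libraries in each class. Col4a1 and Col4a2 have their highest points in fibroblasts, Col4a3, Col4a4 and Col4a5 have their highest means in podocytes with the thin limb next, and Lamc1 has its highest mean in endothelium.

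Immune nuclei also held UMIs of these 3 genes. They had 1045 ± 203 CPM of Col4a3, 846 ± 214 of Col4a4 and 265 ± 29.8 of Col4a5, close to the 1145 ± 159, 840.2 ± 155 and 269 ± 13.9 CPM of the unnamed clusters. The unnamed clusters are not a background class, since Slc34a1, a proximal tubule gene, averaged 35071 CPM in them. Podocytes stood above immune nuclei in 7 of 7 libraries for each gene, by 2.19 times for Col4a3, 1.99 times for Col4a4 and 3.26 times for Col4a5. Endothelium stood below immune nuclei in 7 of 7 libraries, at 0.541, 0.475 and 0.517 times their level. With each nucleus thinned to 1000 UMIs, 86.2% ± 2.74 of podocytes had a Col4a3 UMI, against 63.4% ± 9.46 of immune nuclei, 72.5% ± 12.9 of thin limb nuclei and 38.7% ± 4.16 of endothelial nuclei. Before thinning the shares were 95.6% of podocytes (median 2558 UMIs), 68.5% of immune nuclei (median 1699 UMIs) and 44.3% of endothelial nuclei (median 1036 UMIs). The endothelial shares lay below those of immune nuclei and are not read as expression here, and their source was not tested. Col4a5 separated the classes more sharply, with 52.7% ± 4.95 of thinned podocytes holding a UMI, against 19.7% ± 3.53 of immune and 11.9% ± 1.36 of endothelial nuclei.

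The proximal tubule held 19.4% ± 5.25 of the Col4a3 UMIs of a library, 15.7% ± 5.89 of Col4a4 and 17.2% ± 4.41 of Col4a5 with 22.0% of the nuclei, and podocytes held 5.19% ± 1.36, 5.49% ± 1.48 and 7.34% ± 1.38 with 3.25% of the nuclei. The unnamed clusters held 45.0% ± 5.87 of Col4a3 UMIs, 47.2% ± 6.33 of Col4a4 and 40.8% ± 6.18 of Col4a5. They had 19.7% of the nuclei and 45.6% of all UMIs. Slc34a1 averaged 35071 CPM in them and 22217 CPM in the named proximal tubule, and the proximal tubule shares cover named nuclei only. Within the proximal tubule, the cluster with the lower Slc34a1, the phosphate transporter of that segment, had 321 ± 54.1 CPM of Col4a4, and the cluster with the higher Slc34a1 had 1130.3 ± 269 CPM, with no overlap between their ranges. Col4a3 differed less between them, at 956 ± 152 and 1295 ± 336 CPM. The 2 intercalated cell clusters had 985 ± 98.9 and 376 ± 51.0 CPM of Col4a3 and no overlap.

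Col4a6, whose chain pairs with that of Col4a5 in some epithelia, was sparse. It averaged 16.3 ± 10.3 CPM in the thin limb, 9.21 ± 4.70 in podocytes (29 UMIs over 7 libraries), 7.12 ± 3.85 in fibroblasts and 0.579 ± 0.733 in endothelium. The ranges of thin limb, podocytes and fibroblasts overlapped, and that of endothelium, up to 1.60 CPM, lay below that of podocytes, from 3.99 CPM. Immune nuclei had 2.49 ± 3.42 CPM. With classes set by marker scores of single nuclei in place of clusters, podocytes and not the thin limb had its highest mean.

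Among the laminin chains, Lamc1, the gamma chain shared by most laminins, was highest in endothelium. It had 430.5, 509 and 570.1 CPM in endothelium of the 1-kidney libraries, against 611, 585, 624 and 577 CPM in endothelium of the 2-kidney libraries, so that the 2 groups of libraries did not overlap. The glomerular endothelial sub-cluster had 996 ± 398 CPM and the other endothelial nuclei 539 ± 69.9 CPM. Principal cells followed with 394 ± 78.0, mural nuclei with 378 ± 172, fibroblasts with 297 ± 46.6 and podocytes with 217 ± 34.6 CPM. Endothelium stood 3.04 times above immune nuclei in 7 of 7 libraries, and podocytes 1.18 times in 5 of 7.

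Lama5, the alpha chain of the glomerular basement membrane laminin, had the narrowest spread of class means of the 10 genes, as the ratio of the highest class to the lowest. It averaged 153 ± 49.2 CPM in podocytes, 131 ± 84.9 in mural nuclei, 98.2 ± 14.1 in endothelium and, at the low end, 64.8 ± 23.4 in fibroblasts. Podocytes were 1.60 times above immune nuclei in 7 of 7 libraries, and their range of 109 to 239 CPM overlapped that of mural nuclei.

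Lamb1 and Lamb2 encode the beta chains that replace each other as glomeruli mature. Lamb2 was highest in the thick ascending limb, where it had 572, 448 and 525 CPM in 1-kidney libraries, against 505, 606, 383 and 454 CPM in 2-kidney libraries. Mural nuclei had 349.6 ± 115 CPM of Lamb2, endothelium 232 ± 26.8, podocytes 209 ± 24.7 and the proximal tubule, the lowest class, 38.2 ± 9.61. The proximal tubule range of 24.5 to 47.5 CPM lay below that of immune nuclei, 84.5 to 173. Lamb1 was also highest in the thick ascending limb at 157 ± 32.0 CPM, followed by the distal convoluted tubule at 137 ± 52.5, the connecting tubule at 129 ± 33.0 and intercalated cells at 127 ± 33.0. Endothelium had 33.1 ± 7.52, the proximal tubule 33.0 ± 10.8 and podocytes, with 41 UMIs over 7 libraries, 14.8 ± 7.76 CPM.

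Both beta chain genes also varied between the clusters of a tubule class. Of the 3 clusters under the thick ascending limb name, the third (422 of 3956 nuclei) passed on 5 of 7 thick ascending limb markers but was led by Pappa2, Ptgs2, Oxtr and Nos1, genes known from the macula densa, the sensor cells at the end of that segment. The 3 clusters had 588 ± 90.6, 407 ± 36.6 and 127 ± 39.8 CPM of Lamb2 but 159 ± 38.4, 162 ± 34.8 and 150.2 ± 57.3 CPM of Lamb1. The 2 intercalated cell clusters had 180.1 ± 46.0 and 48.4 ± 17.8 CPM of Lamb1, with no overlap, but 233 ± 66.3 and 215 ± 61.1 CPM of Lamb2.

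Chain shares within a class put these levels side by side. They are shares of UMIs, not of protein and not scaled to length. Col4a3, Col4a4 and Col4a5 together made up 99.1% ± 0.295 of collagen IV UMIs in podocytes (SD, n = 7), 97.1% ± 0.75 in the thick ascending limb, 93.2% ± 2.17 in immune nuclei, 81.2% ± 2.79 in mural nuclei, 69.7% ± 5.92 in endothelium and 68.2% ± 7.52 in fibroblasts. By the mean, podocytes were the highest of 13 classes, and fibroblasts and endothelium the lowest. In fibroblasts the share was 74.4% ± 2.21 in 1-kidney libraries and 63.5% ± 6.53 in 2-kidney libraries (SD, n = 3 and 4), with no overlap between the groups. The connecting tubule also had no overlap, with 93.9% ± 0.647 in 1-kidney libraries and 91.1% ± 0.949 in 2-kidney libraries. Proximal tubule markers moved with both shares, at 25399 to 32817 CPM in 1-kidney and 11110.2 to 20678 CPM in 2-kidney fibroblasts and 17017 to 23526 CPM in 1-kidney and 7362 to 15378 CPM in 2-kidney connecting tubule nuclei, and their part was not tested.

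Lamb2 made up 93.6% ± 3.00 of the Lamb1 and Lamb2 UMIs in podocytes, 88.9% ± 9.12 in mural nuclei, 87.4% ± 3.20 in endothelium, 75.8% ± 6.06 in the thick ascending limb, 64.0% ± 7.75 in immune nuclei and 53.8% ± 10.7 in the proximal tubule. In podocytes it was 92.6% ± 4.33 in 1-kidney libraries and 94.3% ± 1.97 in 2-kidney libraries, which overlapped. In the proximal tubule it was 64.2% ± 5.02 in 1-kidney libraries and 46.0% ± 4.96 in 2-kidney libraries, and in principal cells 78.7% ± 4.44 in 1-kidney libraries and 63.9% ± 5.60 in 2-kidney libraries, without overlap in either class. Thick ascending limb markers summed to 538 to 839 CPM in 1-kidney and 966 to 1312 CPM in 2-kidney proximal tubule nuclei, and proximal tubule markers to 14833 to 25186 CPM in 1-kidney and 3447 to 13642 CPM in 2-kidney principal cells, also without overlap. Their part in these shares was not tested. The difference in shares between the groups of libraries was given no test.

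**Figure D2:**
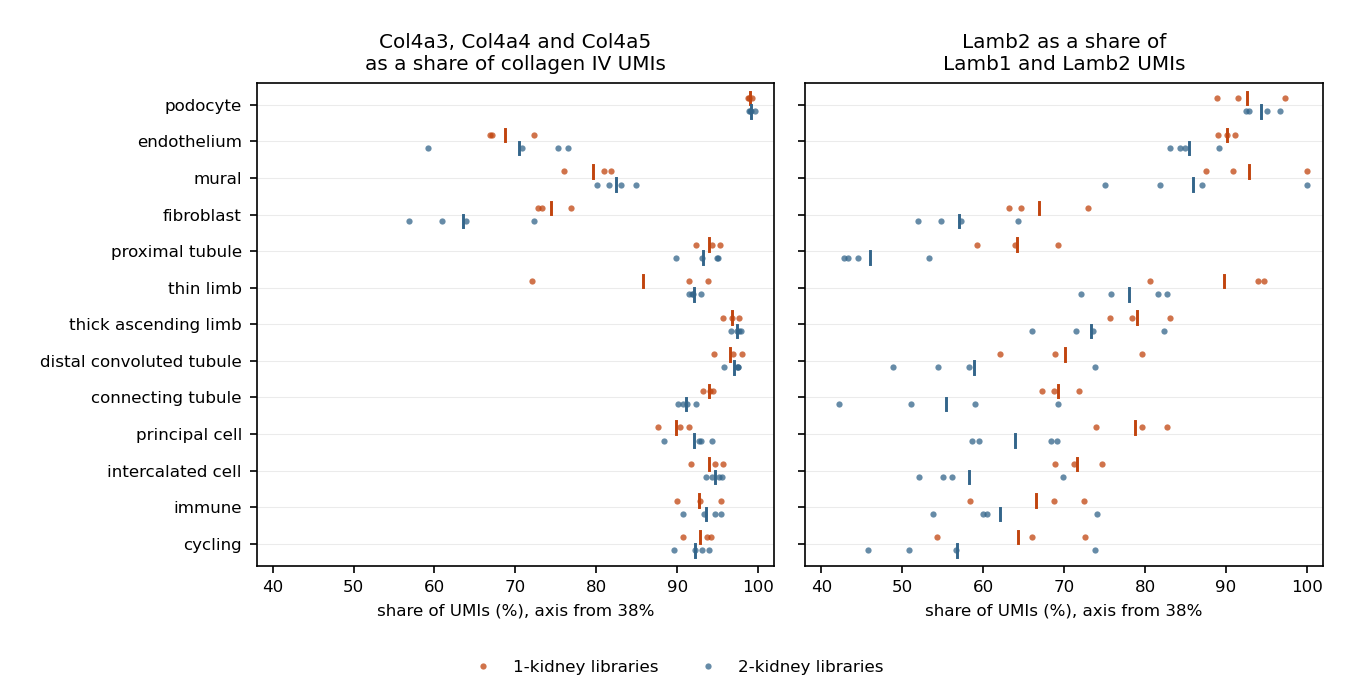
Shares of UMIs in percent, on an axis that does not start at 0, for 13 classes of nuclei: Col4a3, Col4a4 and Col4a5 among collagen IV UMIs in the left panel and Lamb2 among Lamb1 and Lamb2 UMIs in the right panel. Points are libraries and upright bars are group means, with 1-kidney libraries above 2-kidney libraries. Podocytes have the highest mean over 7 libraries in both panels, although single mural libraries reach 100% on the right, endothelium and fibroblasts have the lowest means on the left, and the groups do not overlap in the proximal tubule on the right.

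Within podocytes, the share of Col4a3 among the UMIs of the paired genes Col4a3 and Col4a4 did not overlap between the groups of libraries. Col4a3 made up 50.1, 51.4 and 56.6% of the Col4a3 and Col4a4 UMIs in 1-kidney podocytes, against 58.5, 62.9, 60.3 and 62.5% in 2-kidney podocytes. Every 1-kidney library lay below every 2-kidney library, at 52.7% ± 3.44 in 1-kidney podocytes and 61.0% ± 2.03 in 2-kidney podocytes (SD, n = 3 and 4). The share was not tested, and the groups overlapped in each of the other 12 classes and in the glomerular endothelial sub-cluster. The share of Col4a1 among Col4a1 and Col4a2 UMIs did not overlap between groups in the thin limb, with 86.0% ± 3.80 in 1-kidney libraries and 78.1% ± 1.76 in 2-kidney libraries, nor in principal cells, with 92.1% ± 6.03 in 1-kidney libraries and 83.5% ± 1.96 in 2-kidney libraries. The thin limb share rested on as few as 20 UMIs in a library. Overlap was read for each share, here and above, in every class and in the glomerular endothelial sub-cluster, and every separation found is named. Some separations of 3 from 4 libraries can arise without a group difference.

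How alike the class patterns of the genes were was measured by Pearson's r of log2(CPM + 1) of the class means over 13 classes, as a description, since the classes share libraries and free RNA. The pairs that share a start region had r = 0.96 for Col4a1 with Col4a2 and 0.90 for Col4a3 with Col4a4, and Col4a5 with Col4a6 had 0.82. Across trimers, Col4a1 and Col4a3 had r = -0.49. Partners of the mature glomerular trimer were close, at 0.78 for Col4a3 with Col4a5 and 0.85 for Col4a4 with Col4a5. The laminin chains were less alike, with 0.32 for Lamb1 with Lamb2, 0.20 for Lama5 with Lamc1 and 0.29 for Lamb2 with Lamc1.

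**Figure D3:**
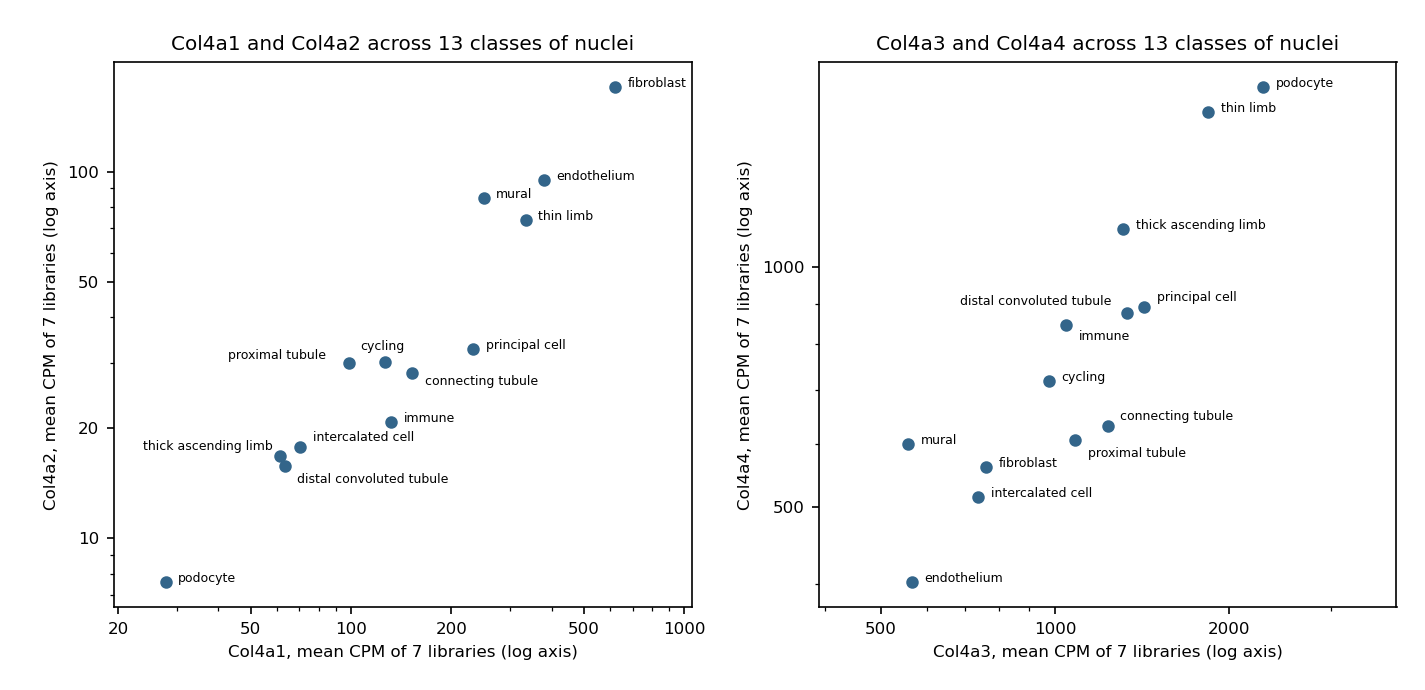
Mean level of Col4a2 against Col4a1 in the left panel and of Col4a4 against Col4a3 in the right panel, in CPM on log axes, with 1 labelled point for each of 13 classes of nuclei (mean of 7 libraries). Podocytes are at the bottom left for Col4a1 and Col4a2 and at the top right for Col4a3 and Col4a4.

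Among 12056 genes with at least 10 CPM in some class, the nearest to Col4a1 by this measure were Col4a2, Slc39a10 and Arhgef40, and the nearest to Col4a2 were Col4a1, Fbn1 and Tgm2. Col4a3 was nearest to Epb41l5, Col4a4 and Rhpn2, and Col4a4 to Col4a3, Epb41l5 and LOC100911486. The genes nearest to Col4a5 were Ptpn13, Fat2 and Dag1, the last encoding dystroglycan, a laminin receptor. Col4a6 was nearest to Actn1, Mamdc2 and Usp11, Lama5 to Ep300, Sumo2 and Slc33a1, Lamb1 to Sppl2b, Bcl2l14 and Atg4d, Lamb2 to LOC100911664, Kmt2d and Sv2a, and Lamc1 to Ctnnd1, Amotl1 and Plscr4.

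The 1-kidney and 2-kidney libraries were compared with edgeR's quasi-likelihood test on UMIs summed per library, with p-values adjusted over all genes tested (Benjamini-Hochberg) and a gene called at an adjusted p under 0.05. Log2 fold changes are 1-kidney over 2-kidney libraries and are followed by their standard error. None of the 10 genes was called in all retained nuclei or in any of the 10 classes with at least 20 nuclei in each library. Over the 88 tests of a member in a class, adjusted p ran from 0.134 to 0.998, and 9 had an unadjusted p under 0.05. Mural nuclei, with as few as 14 in a library, were not tested.

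Summed over all retained nuclei, the 10 genes were all tested and 1 of them, Lamb1, had an unadjusted p under 0.05. Of the 14940 genes tested there, 0% were called and 20.5% had an unadjusted p under 0.05. In such sums fewer nuclei of a class and less RNA per nucleus cannot be told apart. Lamb1 had 64.5, 55.8 and 51.0 CPM in 1-kidney libraries, against 101, 67.3, 72.9 and 77.3 CPM in 2-kidney libraries. Every 1-kidney library lay below every 2-kidney library, and the log2 fold change was -0.45 ± 0.15 (adjusted p = 0.186). Lamc1 had 185, 210.2 and 206 CPM in 1-kidney libraries, against 269, 212, 243 and 244 CPM in 2-kidney libraries, again without overlap, and a log2 fold change of -0.24 ± 0.12 (adjusted p = 0.285). The widespread collagen chains had log2 fold changes of -0.17 ± 0.17 for Col4a1 (adjusted p = 0.557) and -0.35 ± 0.18 for Col4a2 (adjusted p = 0.287). For the mature glomerular chains they were -0.10 ± 0.18 for Col4a3 (0.772), -0.13 ± 0.17 for Col4a4 (0.638) and -0.06 ± 0.12 for Col4a5 (0.802), with adjusted p in brackets. Col4a6 had -0.26 ± 0.31 (adjusted p = 0.621), Lama5 0.12 ± 0.12 (0.554) and Lamb2 0.10 ± 0.20 (0.786). The median over the 10 genes was -0.15, and over all genes tested it was -0.01. Summed proximal tubule markers were higher in all retained nuclei of 1-kidney libraries, 37737 to 43240.2 CPM, against 19233 to 33959 CPM in 2-kidney libraries (9 of 9 markers measured, none at 0), and their part in these values was not tested.

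In podocytes, 7 of the 10 genes passed the filter on low counts and none was called, against 0.0488% of the 6152 genes tested. No member had an unadjusted p under 0.05 there, against 9.77% of all genes. Col4a3 averaged 2093 ± 178 CPM in 1-kidney podocytes and 2433 ± 405 CPM in 2-kidney podocytes (SD, n = 3 and 4), a log2 fold change of -0.23 ± 0.19 (adjusted p = 0.741). Col4a4 averaged 1875 ± 102 CPM in 1-kidney podocytes and 1542 ± 150.3 CPM in 2-kidney podocytes, with 0.27 ± 0.18 (adjusted p = 0.639). Col4a5 averaged 861 ± 107 CPM in 1-kidney podocytes and 862 ± 157 CPM in 2-kidney podocytes, with -0.02 ± 0.20 (adjusted p = 0.982). The groups overlapped for Col4a3 and Col4a5, and for Col4a4 1 value of a 2-kidney library, 1766 CPM, lay above the lowest of the 1-kidney libraries. Of the laminin chains, Lama5 had 131, 132 and 109 CPM in 1-kidney podocytes, against 239, 134, 206 and 122 CPM in 2-kidney podocytes, a log2 fold change of -0.51 ± 0.25 (adjusted p = 0.522). Lamb2 had 209, 219 and 234 CPM in 1-kidney podocytes, against 239, 209, 178 and 176 CPM in 2-kidney podocytes, and Lamc1 had 279, 249 and 207 CPM in 1-kidney podocytes, against 211, 179.5, 196 and 199 CPM in 2-kidney podocytes. Proximal tubule markers overlapped between podocytes of the groups, at 4923 to 7588 CPM in 1-kidney and 2618 to 7308 CPM in 2-kidney libraries.

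In endothelium, none of the 9 members tested was called, against 0.0392% of 7658 genes, and none had an unadjusted p under 0.05, against 10.4% of all genes. Lamc1 had the non-overlapping values given above and a log2 fold change of -0.24 ± 0.18 (adjusted p = 0.676). Median UMIs per endothelial nucleus were 748 to 949 in 1-kidney libraries and 1017 to 1224 in 2-kidney libraries, which did not overlap either, and the part of depth in the Lamc1 values was not tested.

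Whether the 1-kidney effect differed between podocytes and endothelium was tested in 1 fit with each library as a block. The endothelial sums held all 2675 endothelial nuclei, of which 122 were in the glomerular sub-cluster, so most did not come from the glomerular side. None of the 9 members tested differed at the adjusted threshold, against 0.037% of 8108 genes. Lama5 had a difference in log2 fold change, podocyte minus endothelium, of -0.68 ± 0.28 (adjusted p = 0.796). Lamc1 had a difference of 0.51 ± 0.23 (adjusted p = 0.827). These were the 2 members with an unadjusted p under 0.05, against 5.6% of all genes.

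Fibroblasts held the lowest adjusted p of any member. Col4a1 had 437, 468 and 505 CPM in 1-kidney fibroblasts, against 712, 883, 563 and 763 CPM in 2-kidney fibroblasts. Every 1-kidney library lay below every 2-kidney library, and the log2 fold change was -0.60 ± 0.21 (adjusted p = 0.134). Col4a2 had 115, 116 and 161 CPM in 1-kidney fibroblasts, against 158, 202, 190.5 and 249.8 CPM in 2-kidney fibroblasts, which overlapped, and a log2 fold change of -0.57 ± 0.24 (adjusted p = 0.218). Neither passed the threshold. These 2 of the 9 members tested had an unadjusted p under 0.05, against 18.4% of the 6496 genes tested, and 2.25% of all genes were called.

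The fibroblast nuclei themselves differed between the groups. Their summed fibroblast markers were 1732 to 1888 CPM in 1-kidney libraries and 3089 to 3698 CPM in 2-kidney libraries (7 of 8 markers measured, 1 of them at 0). Summed mural markers in them were 468 to 836 CPM in 1-kidney and 847 to 1303 CPM in 2-kidney libraries, and summed proximal tubule markers 25399 to 32817 CPM in 1-kidney and 11110.2 to 20678 CPM in 2-kidney libraries. None of these 3 sums overlapped between the groups. Slc34a1 alone was 19578 to 25266 CPM in 1-kidney and 6803 to 15863 CPM in 2-kidney fibroblasts, and the median was 986 to 1060 UMIs per nucleus in 1-kidney and 1075 to 1764 in 2-kidney libraries. The part of these in the fibroblast folds was not tested.

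Lamb1 had a log2 fold change below 0 in 9 of the 9 classes tested, with a median of -0.58 and a range of -1.31 to -0.34, and 5 of the 9 had an unadjusted p under 0.05. In the distal convoluted tubule Lamb1 had 109, 118 and 72.9 CPM in 1-kidney libraries, against 220.2, 107, 196 and 136 CPM in 2-kidney libraries, a log2 fold change of -0.72 ± 0.26 (adjusted p = 0.208). In intercalated cells it had 116, 99.4 and 82.3 CPM in 1-kidney libraries, against 184, 127, 142 and 139 CPM in 2-kidney libraries, which did not overlap, and -0.58 ± 0.22 (adjusted p = 0.289). In the proximal tubule it had -0.59 ± 0.23 (adjusted p = 0.284), and in principal cells -0.59 ± 0.25 (adjusted p = 0.232). In the thick ascending limb, its highest class, it had -0.34 ± 0.20 (adjusted p = 0.467). No class passed the adjusted threshold, and the same 7 libraries stand behind every class, so the 9 values are not independent. How many of all genes kept 1 direction in every class was not counted, for Lamb1 here or for Lamb2 below. Median UMIs per nucleus did not overlap between the groups in intercalated cells, with 898 to 1496 in 1-kidney and 1789.5 to 2155 in 2-kidney libraries, in the distal convoluted tubule, with 1040 to 1665 in 1-kidney and 1788 to 2092 in 2-kidney libraries, or in the thick ascending limb, with 846 to 1242 in 1-kidney and 1339 to 1723 in 2-kidney libraries, and they overlapped in the proximal tubule and in principal cells. The thick ascending limb markers given above for proximal tubule nuclei were lower in the 1-kidney libraries without overlap, and the same sums overlapped in the distal convoluted tubule, intercalated cells and principal cells. The part of depth and of these markers in the Lamb1 values was not tested. Without the cluster led by Pappa2, left out after the data were seen, the thick ascending limb value was -0.36 ± 0.21. Lamb1 in the unnamed clusters was 53.3, 51.5 and 51.9 CPM in 1-kidney libraries, against 97.6, 68.7, 65.0 and 76.9 CPM in 2-kidney libraries, which did not overlap.

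Lamb1 in the thin limb had the widest fold change, -1.31 ± 0.51 (adjusted p = 0.587), and it rested on single libraries. Without 1-kidney replicate 2 it was -2.17, and without 1-kidney replicate 3 it was -0.59. The smaller thin limb cluster held no nucleus of 1-kidney replicate 2. In the larger cluster alone Lamb1 was 27.8, 64.6 and 17.6 CPM in 1-kidney libraries, against 109.8, 84.3, 73.0 and 93.1 CPM in 2-kidney libraries, on 1 to 6 UMIs per 1-kidney library and 15 to 38 per 2-kidney library.

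Lamb2 had a log2 fold change above 0 in 10 of the 10 classes tested, with a median of 0.20 and a range of 0.05 to 0.47, and no unadjusted p under 0.05. In the thick ascending limb, its highest class, the fold change was 0.09 ± 0.20 (adjusted p = 0.868). The direction did not hold within the 5 libraries of the first library set, where Lamb2 had -0.11 in the thick ascending limb and -0.18 in all retained nuclei. Over the same classes Col4a3 was below 0 in 8 of 10 and Col4a4 in 8 of 10, Lamc1 in 8 of 10, Col4a2 in 7 of 9, Col4a5 in 6 of 10, Col4a1 in 3 of 10 and Lama5 in 3 of 10.

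**Figure D4:**
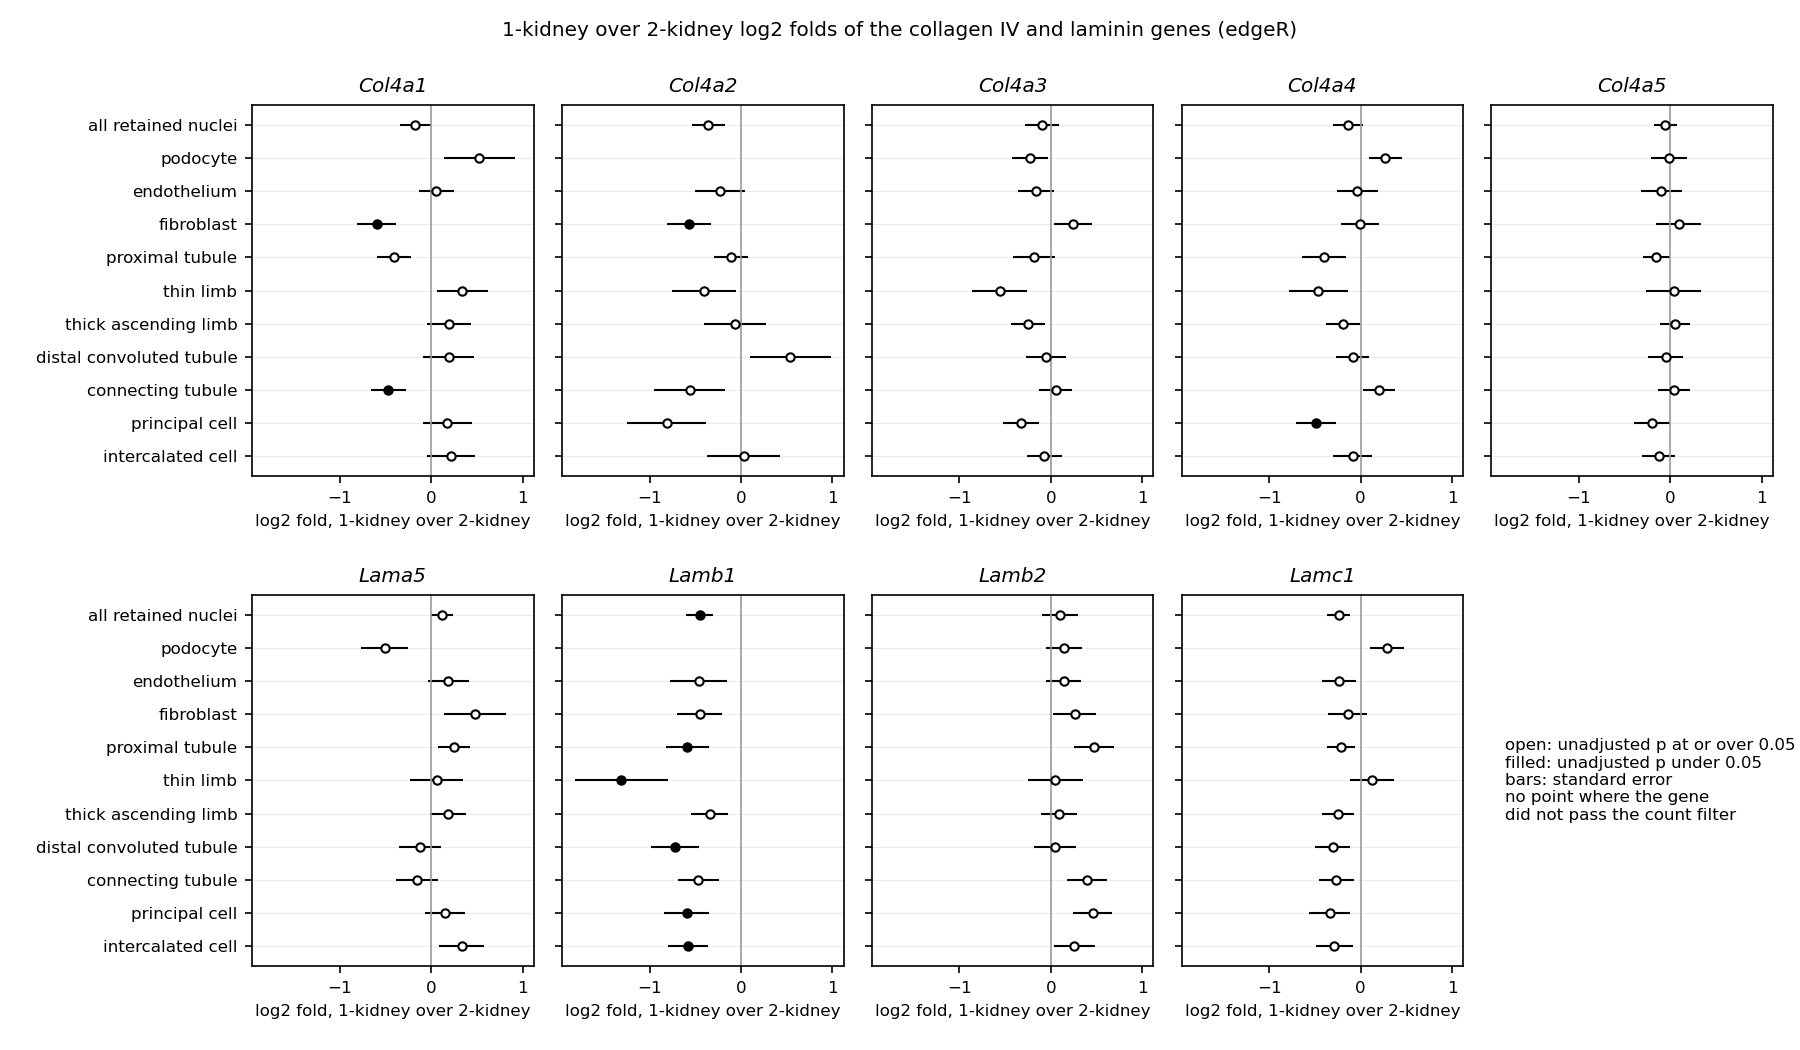
Log2 fold change, 1-kidney over 2-kidney libraries, of 9 of the 10 genes (Col4a6 passed the count filter in no class) in all retained nuclei and in each tested class, with bars of 1 standard error. Filled points have an unadjusted p under 0.05, and no point has an adjusted p under 0.05. Lamb1 lies below 0 in every row and Lamb2 above 0.

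In the tubule classes the members called and their background were as follows. The proximal tubule had 0% of 10920 genes called and 16.4% with an unadjusted p under 0.05, against 0 and 1 of 9 members. The thin limb had 0.0343% of 5833 called and 7.51% at the unadjusted level, against 0 and 1 of 9 members. The thick ascending limb had 0% of 8318 called and 13.5% at the unadjusted level, against 0 and 0 of 9 members. The distal convoluted tubule had 0.0698% of 7160 called and 15.8% at the unadjusted level, against 0 and 1 of 9 members. The connecting tubule had 0.359% of 6967 called and 18.9% at the unadjusted level, against 0 and 1 of 9 members. Principal cells had 0.0243% of 8247 called and 18.5% at the unadjusted level, against 0 and 2 of 9 members. Intercalated cells had 0% of 7687 called and 13.9% at the unadjusted level, against 0 and 1 of 9 members. The members' shares at the unadjusted level were thus near those of all genes, and single low p-values among them are not read as results.

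Outside Lamb1, the members with an unadjusted p under 0.05 in a tubule class were Col4a1 in the connecting tubule and Col4a4 in principal cells. Col4a1 had 129.6, 126 and 119 CPM in 1-kidney connecting tubule nuclei, against 195, 139.6, 186 and 174 CPM in 2-kidney ones, a log2 fold change of -0.47 ± 0.19 (adjusted p = 0.201). Col4a4 had 762, 652 and 796 CPM in 1-kidney principal cells, against 1302, 859, 997 and 874 CPM in 2-kidney ones, with -0.49 ± 0.22 (adjusted p = 0.257). Summed proximal tubule markers were higher without overlap in both classes of the 1-kidney libraries, at 17017 to 23526 CPM in 1-kidney and 7362 to 15378 CPM in 2-kidney connecting tubule nuclei and 14833 to 25186 CPM in 1-kidney and 3447 to 13642 CPM in 2-kidney principal cells, and their part was not tested. Distal convoluted tubule nuclei, where Lamb1 had an unadjusted p under 0.05, had 19583 to 21253 CPM of these markers in 1-kidney and 7987 to 17676 CPM in 2-kidney libraries. Median UMIs per connecting tubule nucleus were 1374 to 1928.5 in 1-kidney and 2133 to 2753 in 2-kidney libraries, without overlap, and those of principal cells overlapped. The part of depth in the Col4a1 values was not tested.

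The other genes of basement membranes were read from a list of 77 symbols, 73 of them in the feature table, covering other laminins, linkers and proteoglycans, receptors, assembly enzymes, remodelling enzymes and regulators. In all retained nuclei 71 were tested and none was called by edgeR, while 19 were lower and 0 higher at an unadjusted p under 0.05, against 10.0% and 10.5% of all genes, and their median log2 fold change was -0.30 against -0.01 for all genes. Linkers and proteoglycans made up 10 of the 19, with a median of -0.53 over 18 genes. The 3 smallest p-values belonged to Nid1, encoding nidogen, which bridges laminin and collagen IV (-0.64 ± 0.14, adjusted p = 0.162), Ntn4, encoding a netrin that binds laminin (-0.81 ± 0.19, 0.162), and Tinag, an antigen of tubular basement membranes (-0.87 ± 0.22, 0.171). DESeq2 called 514 genes in all retained nuclei where edgeR called 0. Nid1, Ntn4 and Tinag were among them, with adjusted p of 0.00823, 0.0112 and 0.0161, and none of the 10 members was. In all it called 8 of the 70 listed genes to which it gave an adjusted p, each of them lower in 1-kidney libraries. The share of all genes that the 514 make up is not given, so the 8 are not read as a result about the list.

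By edgeR with the main settings, fibroblasts were the single class in which listed genes were called. These were 5 of 47 tested against 2.25% of all genes, and all 5 fell in 1-kidney libraries. They were Timp3, an inhibitor of matrix proteases (-1.003 ± 0.21, adjusted p = 0.0217), Pxdn, encoding peroxidasin, which cross-links collagen IV (-1.89 ± 0.48, 0.0436), the laminin chain Lamc3 (-0.98 ± 0.25, 0.0456), Nid1 (-0.90 ± 0.23, 0.0462) and Egflam, encoding pikachurin (-1.25 ± 0.32, 0.0464). At the unadjusted level 15 were lower and 1 higher, against 9.62% and 8.76% of all genes, and the median was -0.51 against -0.0044 for all genes. Each of the 5 lost its call with predicted doublets kept, and each lost it without 1-kidney replicate 1 or without 1-kidney replicate 2. Timp3 kept it in the other 5 of the 7 fits that left out a library, Egflam in 2, Pxdn in 2, Lamc3 in 1 and Nid1 in none, with the log2 fold changes below 0 throughout. The fibroblast, mural and proximal tubule marker sums given above moved with these genes as with Col4a1 and Col4a2, and their part was not tested.

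In podocytes 39 listed genes were tested and none was called by edgeR or DESeq2, with 2 lower and 1 higher at the unadjusted level, against 4.86% and 4.91% of all genes. The smallest p-values were those of P3h2, a prolyl hydroxylase that acts on collagen IV (-0.66 ± 0.19, adjusted p = 0.306), Itga6, a laminin-binding integrin (1.07 ± 0.34, 0.335), and Tgfbr2, a TGF-beta receptor (-0.62 ± 0.20, 0.345). In endothelium 49 were tested and none was called by edgeR with the main settings. At the unadjusted level 9 were lower and 0 higher, against 5.42% and 4.99% of all genes, led by Ntn4 (-0.77 ± 0.21, adjusted p = 0.221), Tinagl1 (-0.97 ± 0.30, 0.26) and Tgfbr2 (-0.70 ± 0.22, 0.266). The test of the difference between podocytes and endothelium gave Itga6 1.32 ± 0.33 (adjusted p = 0.181), Loxl2 1.85 ± 0.77 (0.796) and Sdc4 -0.72 ± 0.31 (0.813) as its smallest. Of the 57 listed genes tested 0 were called, against 0.037% of all genes. At the unadjusted level 3 were higher and 1 lower, against 3.35% and 2.24% of all genes.

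In tubule classes edgeR with the main settings called no listed gene. Of all genes tested in these 7 classes, 3.94% to 9.30% were lower and 3.57% to 9.59% higher at the unadjusted level. The proximal tubule had 9 lower and 6 higher of 50 at the unadjusted level, with P3h2 (-1.02 ± 0.21, adjusted p = 0.229), Timp3 (-1.19 ± 0.26, 0.229) and Tinag (-1.28 ± 0.28, 0.251) first. The thin limb had 4 lower and 4 higher of 40, led by Timp3 (-1.26 ± 0.29, 0.31), P3h2 (-0.93 ± 0.24, 0.363) and Ntn4 (-0.82 ± 0.26, 0.439). The thick ascending limb had 8 lower and 1 higher of 42, led by Ntn4 (-1.25 ± 0.21, 0.0652), Plod2 (-1.03 ± 0.26, 0.188) and Adam10 (-0.73 ± 0.24, 0.261). The distal convoluted tubule had 5 lower and 1 higher of 36, led by P3h2 (-0.57 ± 0.19, 0.175), Itga6 (-0.54 ± 0.20, 0.218) and Npnt (-0.55 ± 0.21, 0.225). The connecting tubule had 7 lower and 3 higher of 36, led by Sec23a (-1.33 ± 0.41, 0.114), Ccn2 (1.05 ± 0.33, 0.118) and Ntn4 (-0.73 ± 0.27, 0.177). Principal cells had 9 lower and 3 higher of 43, led by Timp3 (-1.19 ± 0.34, 0.13), Plod2 (-1.16 ± 0.34, 0.133) and Npnt (-0.71 ± 0.22, 0.147). Intercalated cells had 7 lower and 2 higher of 37, led by Npnt (-0.69 ± 0.21, 0.227), Plod2 (-1.25 ± 0.38, 0.237) and Lama1 (0.72 ± 0.26, 0.273). DESeq2 called listed genes in some of these classes, all of them lower in 1-kidney libraries. They were 4 in the proximal tubule, among them P3h2 (adjusted p = 0.000475), Timp3 (0.00248) and Tinag (0.00432), Timp3 and P3h2 in the thin limb (0.00921 each), Ntn4 in the thick ascending limb (0.00107), P3h2 in the distal convoluted tubule (0.0175), 3 in principal cells, among them Timp3 (0.0122) and Npnt (0.0451), and Tgfbr2 in endothelium (0.049), with DESeq2's adjusted p in brackets. DESeq2 gave an adjusted p to 39 listed genes in the proximal tubule, 70 in the thin limb and 19 in the thick ascending limb. It gave an adjusted p to 8 in the distal convoluted tubule, 23 in principal cells and 10 in endothelium. Shares of all genes called by DESeq2 are not given, so these counts are not read as results about the list. Ntn4 in the thick ascending limb also passed by edgeR with no filter, with predicted doublets kept, without 2-kidney replicate 1 and without the cluster led by Pappa2 (adjusted p = 0.0479). Other values in brackets are the log2 fold change with its standard error and the adjusted p.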

How the data were processed

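Single-nucleus libraries of 7 HSRA rat kidneys were compared, 3 labelled 1 Kidney and 4 labelled 2 Kidney. The deposited files hold UMI counts per gene and barcode, made by the authors with Cell Ranger 7.0 per the submitters' processing notes (7.0.0 per the file headers) on a genome build not given in the sources used here. Matrices hold called barcodes, so free RNA was not subtracted. Barcodes under 200 genes or over 5% mitochondrial UMIs were dropped. Scrublet called at most 10 doublets in a library, too few to have worked, so barcodes were removed by score at 0.8% per 1000 barcodes. Counts were scaled to 10000 per nucleus, and 2000 variable genes without the 10 members (2 of which were among them), 30 components, 20 neighbours and Leiden clustering at resolution 1 gave 26 clusters (scanpy 1.11.5). A cluster was named when at least 3 markers were 2-fold over the median of the other clusters. The best marker also had to be 3-fold over the mean of all other nuclei, a bound chosen once the markers had been seen. Clusters with a haemoglobin gene among their leading genes were left unnamed. Replicates were numbered in accession order, so numbers pair nothing.

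Counts were summed per library and class and tested, two-sided, with edgeR 4.0.16 (TMM, filterByExpr, quasi-likelihood) in R 4.3.3, adjusted over all genes tested (Benjamini-Hochberg). DESeq2 1.42.0, other scaling, no filter, library set, doublets kept, marker-score classes and leaving out each library were alternatives. The test was also run on simulated data, but its recovery rates are not given here. A gene that was not called is not shown to be unchanged. The members and lists were chosen with earlier results of these data known. Every member is named with its levels; fold changes are given for all retained nuclei and for a class where the member peaks or has an unadjusted p under 0.05, and of the list, genes past the adjusted threshold or else the 3 with the smallest p. Promoter windows are RefSeq's on GRCr8, matched by symbol for 9 of 10 genes. PCR copies are collapsed by UMIs, but a count of 0 still allows an expected count of up to about 3 UMIs.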

Additional observations from a re-analysis of the deposited data

Results flagged for a closer look

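Of 35 groups of 4 2-kidney libraries checked for a library standing apart, 2 passed the critical value of Dixon's ratio of gap to range, and chance alone picks about 1 group in 20. The level of Col4a4 in podocytes was 1766 CPM in 2-kidney replicate 2, and the nearest of the other 2-kidney libraries had 1489.8 CPM, a ratio of 0.86. The level of Col4a6 in all retained nuclei was 3.40 CPM in 1 of the 2-kidney libraries, and the nearest of the others had 2.14 CPM, a ratio of 0.832. Neither gene was called in these comparisons with all libraries, and no cause was tested.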

How the results depend on the processing

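None of the 10 genes was called by edgeR or DESeq2 under any alternative run. Their 26 reported log2 fold changes gave 355 values under the alternatives, of which 344 kept their direction and 11 turned it, all of them for 4 values near 0. Lamb2 in all retained nuclei (0.10) was -0.18 within the first library set, -0.17 with the set as a term, and -0.026 to 0.28 when each library was left out in turn. Lamb2 in the thick ascending limb (0.09) was -0.11 within the set, -0.12 with the set as a term, and -0.016 to 0.23 on leaving out a library. Leaving out a library gave Col4a3 in all retained nuclei (-0.10) a range of -0.18 to 0.018, and Col4a5 in podocytes (-0.02) one of -0.11 to 0.12. The 38 values of named listed genes had 522 alternative values, none turned in direction, of which 461 kept their side of the threshold, 34 lost a call and 27 gained one. The gains came in all retained nuclei, endothelium and tubule classes, and most under DESeq2 or without a filter. In fibroblasts Lamc3 and Nid1 lost theirs with RLE factors and all 5 with doublets kept. With marker-score classes only Timp3 and Lamc3 of the 5 were called. Pxdn was also not called by DESeq2 or within the first library set. Other listed genes gained calls in fibroblasts. Within the first library set edgeR called 10 of 37 listed genes, and with the set as a term 11 of 47, each lower in 1-kidney libraries. In endothelium Fn1 was called in both settings, also lower. The shares of all genes called in fibroblasts there are not given, so these counts are not read as results about the list.

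Counts of called genes moved more, and the cause was not tested. DESeq2 called 514 genes in all retained nuclei (edgeR 0), 142 in the connecting tubule (25), 78 in the distal convoluted tubule (5), 35 in endothelium (3), 25 in intercalated cells (0), 213 in principal cells (2), 120 in the proximal tubule (0), 48 in the thick ascending limb (0), 4 in the thin limb (2) and 0 for the difference between podocytes and endothelium (3), and 216 in fibroblasts (146). Without a filter edgeR called 250 in the connecting tubule, 159 in the distal convoluted tubule, 78 in endothelium, 119 in intercalated cells, 463 in principal cells, 58 in the proximal tubule, 139 in the thick ascending limb, 32 in the thin limb, 11 for the difference, 60 in podocytes (3 with the filter) and 290 in fibroblasts. With doublets kept it called 110 in the connecting tubule, 33 in the distal convoluted tubule, 0 in endothelium, 20 in fibroblasts, 2 in podocytes, 0 in principal cells, 6 in the thick ascending limb, 1 in the thin limb and 5 for the difference. Marker-score classes gave 1 in the connecting tubule, 0 in the distal convoluted tubule, 11 in endothelium, 92 in fibroblasts, 0 in podocytes, principal cells and the thin limb, and 2 for the difference. With the library set as a term there were 14 in the connecting tubule, 19 in endothelium, 1 in intercalated cells, 0 in podocytes, principal cells and the thin limb, and 3 in the thick ascending limb. Within the set there were 20 in the distal convoluted tubule, 15 in endothelium, 7 in intercalated cells, 0 in podocytes and principal cells, 4 in the proximal tubule, 6 in the thick ascending limb and 7 for the difference. Without the cluster led by Pappa2, an alternative chosen after seeing the data, there were 5 in the thick ascending limb. RLE factors gave 139 in fibroblasts and 4 for the difference. Leaving out each library gave 0 to 0 in all retained nuclei and the proximal tubule, 0 to 266 in the connecting tubule, 0 to 239 in the distal convoluted tubule, 0 to 75 in endothelium, 14 to 228 in fibroblasts, 0 to 156 in intercalated cells, 0 to 170 in podocytes, 0 to 112 in principal cells, 0 to 43 in the thick ascending limb, 0 to 5 in the thin limb and 0 to 8 for the difference. No paired analysis was possible because replicate numbers were given in accession order and pair no samples. Levels after subtracting free RNA were not run, since no empty droplets were at hand.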
